A study of Mus musculus with 12 samples.

Results

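The 36 genes described here encode DNA repair proteins of the mouse. They act in homologous recombination, in the Fanconi pathway of crosslink repair and in mismatch repair, and 4 of them (Ung, Neil3, Apex1 and Xrcc1) act in base excision and single-strand break repair. The genes were chosen by name with earlier results of these data known, so their counts beside all genes are descriptions and not independent support. Each symbol matched 1 gene of the 49315 in the count tables through the GENCODE M21 annotation of the GRCm38 build. RNA was sequenced in 12 libraries from mouse embryonic fibroblasts (MEFs), cells of connective tissue taken from embryos into culture. Cells were treated for 24 h with RapaLink-1 at 10 nM, with Torin1 at 250 nM, with rapamycin at 20 ng/ml or with the solvent DMSO, and each treatment had 3 libraries. Rapamycin binds the protein FKBP12 and with it mTOR complex 1, Torin1 competes with ATP in the mTOR kinase domain, and in RapaLink-1 a linker joins rapamycin to an mTOR kinase inhibitor. All groups shared the same medium with 10% serum, and the labels name neither the mouse strain nor whether the cells were primary or immortalised. Nothing in the labels tells whether a treatment's libraries stem from separate cultures. The p-values therefore refer to the spread between libraries, which may be technical. Doses were not matched, and comparisons of compounds are comparisons of these doses.

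Homologous recombination repairs a broken chromosome by copying an intact sister: the ends are trimmed to single strands, BRCA2 and its partners prepare these to pair with the sister, and the joined molecules are later separated by helicases and nucleases. In the Fanconi pathway a core complex marks the FANCD2 and FANCI proteins with ubiquitin at a crosslink, which is then cut out and repaired by recombination. Mismatch repair removes errors left by replication, and base excision repair removes single damaged bases. Recombination and the Fanconi pathway act mainly in S and G2 phase, and many of their genes are known to be transcribed most in cells that replicate DNA.

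Total counts were 30075870 to 36206209 per library with RapaLink-1, 31328365 to 37762480 with Torin1, 30495065 to 38809352 with rapamycin and 34696405 to 39423703 with DMSO. Levels are given as CPM, the counts of a gene scaled to a common library size with TMM, a factor that corrects for differences in RNA composition. All 10 fibroblast markers examined were detected, and their summed level was 18707 to 19032 CPM with RapaLink-1, 20960 to 21635 with Torin1, 19860 to 20228 with rapamycin and 21140 to 21537 with DMSO. Single fibroblast markers went both ways, with 5 lower and 4 higher with RapaLink-1 (-2.56 to 1.07 on the log2 scale), 3 lower and 6 higher with Torin1 (-1.28 to 1.51), and 6 lower and 4 higher with rapamycin (-0.96 to 0.63). Summed markers of endothelial, leukocyte, epithelial and muscle cells stayed at or below 4.15 CPM in every library, with Cdh5, Tek, Ptprc, Adgre1, Myod1 and Ckm below 0.1 CPM. Of 5 neural markers, only Tubb3 was tested, and the neural sum was 2.90 to 4.12 CPM with RapaLink-1, 3.04 to 4.12 with Torin1, 10.6 to 11.5 with rapamycin and 13.4 to 17.7 with DMSO, while Sox2, Sox10, Elavl3 and Snap25 were below 0.1 CPM.

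The repair genes as a group were lower after RapaLink-1 and Torin1 and, by a smaller amount, after rapamycin. Summed over the 36 genes, the level was 853 to 861.4 CPM with RapaLink-1, 810 to 814.5 with Torin1, 1248 to 1253 with rapamycin and 1424 to 1430 with DMSO, with no overlap between any pair of groups. With RapaLink-1, 32 of the 36 genes fell, 3 rose and 1 was not called, against 37.9% lower and 38.7% higher among the 15917 genes tested. With Torin1, 33 fell, 2 rose and 1 was not called, against 38.3% lower and 39.8% higher among all genes. Rapamycin lowered 20 and raised 4, and 12 were not called, against 32.2% lower and 27.5% higher among all genes. Upper-quartile scaling in place of TMM, which shifted the median of all genes by about 0.1, gave 30 lower and 3 higher with RapaLink-1, 30 lower and 2 higher with Torin1, and 16 lower and 6 higher with rapamycin. Over all 15917 genes it gave 4823 lower and 7629 higher with RapaLink-1, 4999 and 7640 with Torin1, and 4061 and 5481 with rapamycin. A gene was called at a Benjamini-Hochberg adjusted p under 0.05 in edgeR's quasi-likelihood test, and the 3 contrasts share their DMSO libraries.

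The sizes differed between the compounds. The median log2 fold change over the 36 genes was -0.75 with RapaLink-1, -0.82 with Torin1 and -0.14 with rapamycin, where the medians of all genes tested were 0.03, 0.04 and 0.00. The 28 other recombination and Fanconi genes described below, outside the set, had smaller medians of -0.27, -0.33 and -0.06. Falls of 2-fold or more were seen in 11 genes with RapaLink-1 (5.77% of all genes), 17 with Torin1 (6.35%) and 1 with rapamycin, Ung (0.528%). The 3 treated and 3 DMSO libraries did not overlap for 34 genes with RapaLink-1 (77.6% of all genes), 35 with Torin1 (78.5%) and 26 with rapamycin (63.0%). In RNA from whole cultures, fewer cells of a kind and less RNA per cell cannot be told apart. Genes of S phase and of G2 and mitosis fell in the same libraries, with all 14 and all 12 lower after RapaLink-1 (medians -1.33 and -1.20) and after Torin1 (medians -1.35 and -1.47), and 14 and 10 lower after rapamycin (medians -0.39 and -0.23). Their part in the falls of the repair genes was not tested.

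**Figure D1:**
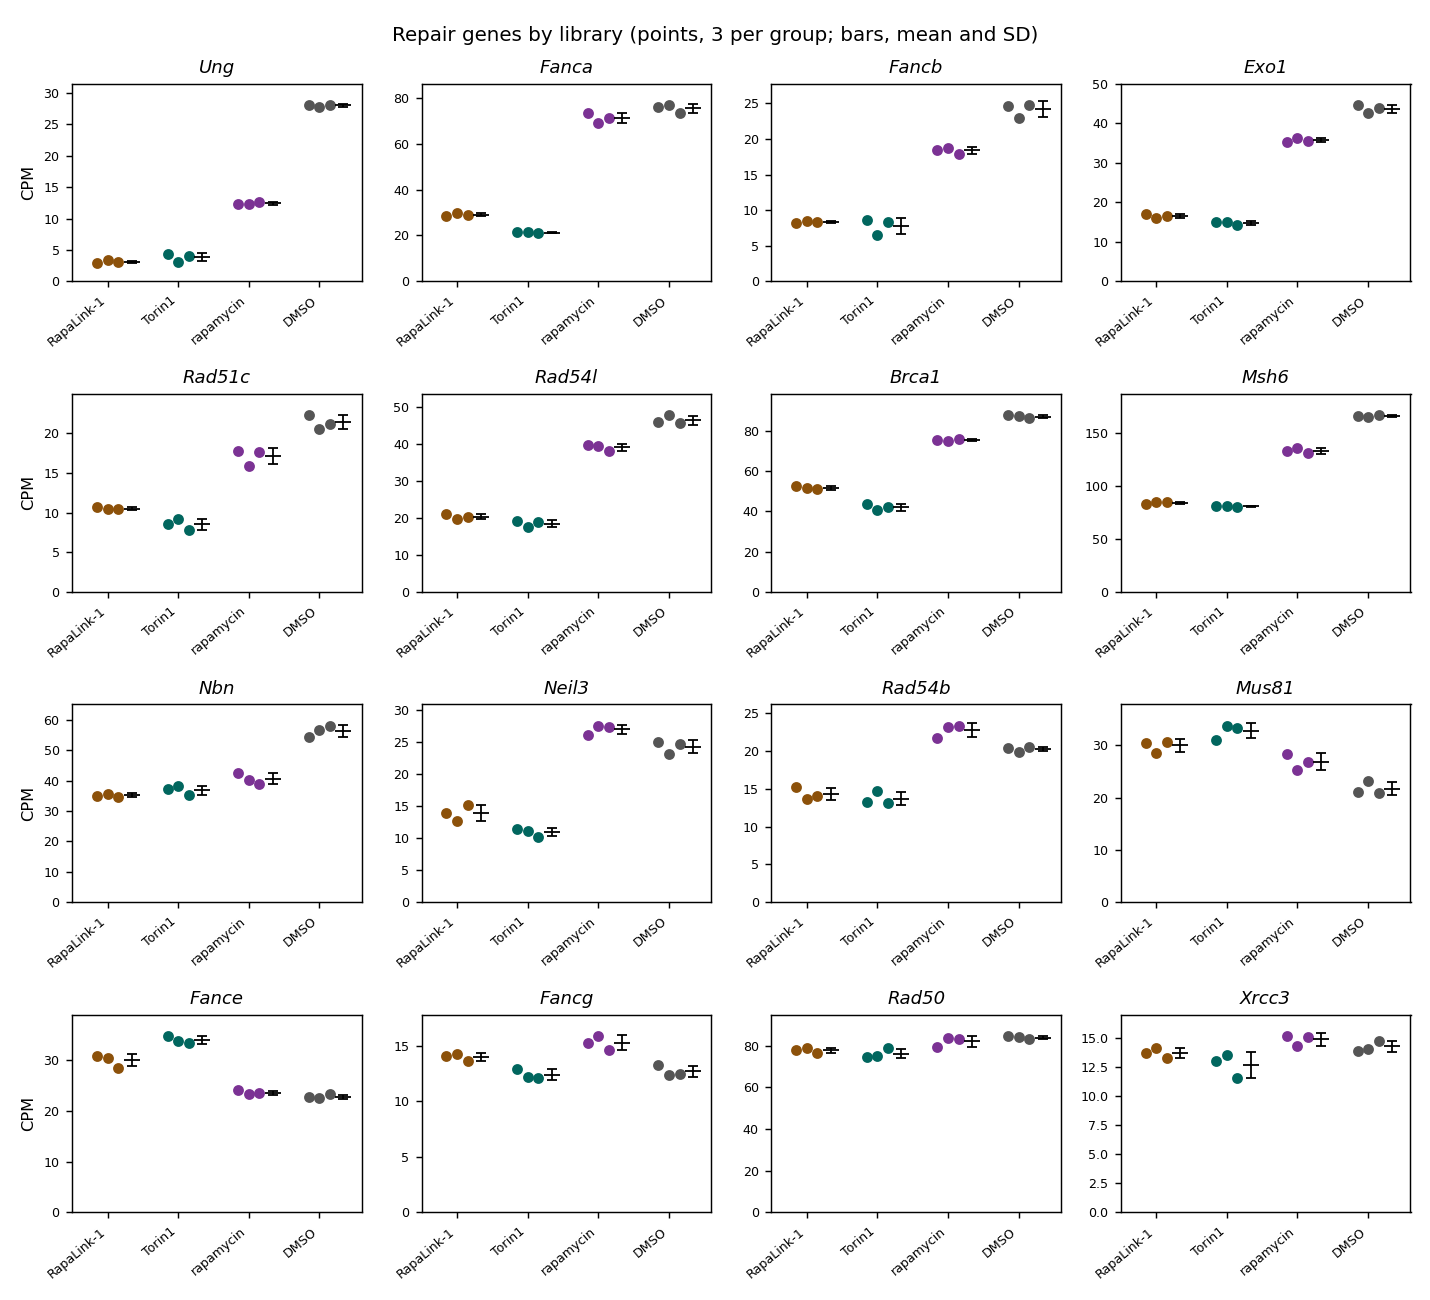
Level of 16 of the 36 repair genes in each of the 12 libraries, in CPM on a linear axis from 0, with RapaLink-1, Torin1, rapamycin and DMSO from left to right in each panel and bars for the mean and SD of 3 libraries. Brip1, Rbbp8 and Fanci, given by library in the text, are not drawn. Ung stands at 2.94 to 3.32 CPM with RapaLink-1 and at 27.7 to 28.1 CPM with DMSO, while Mus81 and Fance are higher with RapaLink-1 and Torin1 than with DMSO.

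Promoter sequence was available for 29 of the 36 genes in a RefSeq table of the GRCm38.p6 assembly, each as 250 bases before and 50 bases after the start. E2F factors are the regulators best known at promoters of replication genes, and their motif was searched as TTTCCCGC, TTTGGCGC, TTTCGCGC or TTTGCCGC on both strands. It was present in 5 of the 29 genes, or 17.2%, against 2.60% of all 27025 genes with a promoter in the table. These 5 were Brca2, Bard1, Rad51c, Fancg and Msh6, and a gene counted once if any of its windows matched. Fanca and Fancb, among the largest falls, had no match. The 27025 genes include genes not tested here, while all 29 were tested, so the shares come from unlike sets. No promoter was available for Exo1, Nbn, Rbbp8, Rad50, Xrcc2, Rad54b and Fancd2. The CCAAT box, read as CCAAT on both strands, was in 19 of 29 (65.5%, against 41.1% of all). The CHR motif TTTGAA of cell cycle genes was in 3 (10.3%, against 20.2%), the E box CACGTG in 2 (6.90%, against 8.09%) and the NRF1 motif in none of the 29 (1.07% of all). A match is a description of the letters and not a measured binding site. The promoters of Rad51c, Msh6 and Fancg are shown because they hold an E2F motif while their genes behaved differently: Rad51c and Msh6 fell with all 3 compounds and Fancg did not. The promoter of Ung is shown because Ung had the largest fall of the 36 and no E2F match in this window. They lie at chr11:87404905-87405204 on the minus strand (Rad51c), chr17:87974800-87975099 on the plus strand (Msh6), chr4:43010252-43010551 on the minus strand (Fancg) and chr5:114130185-114130484 on the plus strand (Ung). Capitals mark the E2F match, at bases 246 to 253 in Rad51c, 266 to 273 in Msh6 and 199 to 206 in Fancg, and each sequence reads along the strand of its gene.
Rad51c: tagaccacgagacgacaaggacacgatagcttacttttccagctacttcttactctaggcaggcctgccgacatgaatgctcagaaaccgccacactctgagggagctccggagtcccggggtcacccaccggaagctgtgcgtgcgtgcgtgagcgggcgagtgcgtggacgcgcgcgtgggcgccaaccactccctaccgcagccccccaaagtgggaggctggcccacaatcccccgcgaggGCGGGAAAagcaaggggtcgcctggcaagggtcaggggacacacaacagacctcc
Msh6: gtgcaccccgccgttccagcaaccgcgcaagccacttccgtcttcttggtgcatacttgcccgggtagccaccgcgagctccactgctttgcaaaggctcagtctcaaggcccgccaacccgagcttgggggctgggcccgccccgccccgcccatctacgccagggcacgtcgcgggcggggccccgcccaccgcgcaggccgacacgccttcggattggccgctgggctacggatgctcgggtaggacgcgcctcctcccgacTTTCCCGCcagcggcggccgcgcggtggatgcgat
Fancg: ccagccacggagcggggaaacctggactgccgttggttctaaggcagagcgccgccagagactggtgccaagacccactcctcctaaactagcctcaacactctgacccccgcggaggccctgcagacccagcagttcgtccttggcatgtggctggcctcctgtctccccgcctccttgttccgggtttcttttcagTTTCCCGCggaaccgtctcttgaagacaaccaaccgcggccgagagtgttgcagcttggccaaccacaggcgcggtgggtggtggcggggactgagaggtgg
Ung: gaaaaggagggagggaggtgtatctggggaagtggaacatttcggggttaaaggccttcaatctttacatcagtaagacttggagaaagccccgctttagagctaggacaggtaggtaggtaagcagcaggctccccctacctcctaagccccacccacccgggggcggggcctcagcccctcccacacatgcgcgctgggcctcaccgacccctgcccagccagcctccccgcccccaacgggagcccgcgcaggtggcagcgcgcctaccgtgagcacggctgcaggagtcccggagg

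The mediators prepare the trimmed ends for pairing. Brca1, a ubiquitin ligase that works with Bard1 and recruits the Palb2 bridge to Brca2, fell with each compound. It had 52.8, 51.6 and 50.9 CPM with RapaLink-1, 43.7, 40.5 and 42 CPM with Torin1, 75.4, 75 and 76.2 CPM with rapamycin and 87.9, 87.4 and 86.3 CPM with DMSO. Each group formed its own range without overlap, lowest with Torin1. The log2 fold change of Brca1 against DMSO was -0.75 ± 0.03 with RapaLink-1 (SE, adjusted p = 5.47e-57), -1.05 ± 0.03 with Torin1 (adjusted p = 1.69e-74) and -0.21 ± 0.03 with rapamycin (adjusted p = 3.53e-11). Bard1, which pairs with Brca1, had mean levels of 11.9 ± 1.3 CPM with RapaLink-1, 10.6 ± 0.73 with Torin1, 22.3 ± 0.81 with rapamycin and 22.2 ± 1.9 with DMSO (SD, n = 3) and changed by -0.89 ± 0.06, -1.05 ± 0.06 and 0.01 ± 0.05 with RapaLink-1, Torin1 and rapamycin. Palb2 and Brca2 fell by 0.57 and 0.54 on the log2 scale with RapaLink-1, by 0.81 and 0.62 with Torin1, and were not called with rapamycin (-0.06 ± 0.08 and -0.04 ± 0.04). In Palb2 5.64% of exonic bases lie opposite Gm16326, which had no counts in any library. Of the 4 mediators only Brca1 was called with rapamycin.

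Rad51b, Rad51c, Xrcc2 and Xrcc3 are related genes whose proteins belong to 2 complexes that assist strand exchange. Rad51c, which is part of both, had 10.7, 10.4 and 10.4 CPM with RapaLink-1, 8.60, 9.16 and 7.74 CPM with Torin1, 17.8, 15.9 and 17.7 CPM with rapamycin and 22.3, 20.6 and 21.2 CPM with DMSO. The groups did not overlap, and its log2 fold change was -1.03 ± 0.06 with RapaLink-1, -1.33 ± 0.06 with Torin1 and -0.31 ± 0.05 with rapamycin (adjusted p = 6.75e-38, 2.92e-48 and 9.52e-08). Xrcc2 fell by 1.07 with RapaLink-1 and by 1.28 with Torin1, while its change with rapamycin (-0.13 ± 0.05, adjusted p = 0.0192) rested on groups that overlapped and was lost without DMSO replicate 3 (-0.11), rapamycin replicate 1 (-0.10) or rapamycin replicate 3 (-0.10). Upper-quartile scaling also removed the rapamycin call of Xrcc2, and its weakest value in any alternative was -0.06. Rad51b, at 2.67 ± 0.2 CPM with RapaLink-1, 2.90 ± 0.34 with Torin1, 3.44 ± 0.054 with rapamycin and 4.01 ± 0.23 with DMSO (SD, n = 3) the least counted of the 36 genes, fell by 0.58 with RapaLink-1 and 0.46 with Torin1. Xrcc3, the partner of Rad51c in the smaller complex, stood apart from the other 3 with 13.7, 14.2 and 13.3 CPM with RapaLink-1, 13, 13.6 and 11.6 CPM with Torin1, 15.2, 14.3 and 15.1 CPM with rapamycin and 13.9, 14.1 and 14.8 CPM with DMSO. Torin1 libraries of Xrcc3 lay below those of DMSO, and those of RapaLink-1 and rapamycin overlapped with DMSO. The change of Xrcc3 with Torin1 (-0.17 ± 0.06, adjusted p = 0.0103) was lost without DMSO replicate 3 (-0.14, adjusted p = 0.0606) or Torin1 replicate 3 (-0.10, adjusted p = 0.166). It was also lost under upper-quartile scaling. Over all alternatives it ranged from -0.23 to -0.04, with adjusted p up to 0.546. Xrcc3 was not called with RapaLink-1 (-0.06 ± 0.06) or rapamycin (0.06 ± 0.06).

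Strand invasion also needs accessory proteins, and Rad54l is a DNA motor that helps the trimmed end invade the sister molecule. It had 21.1, 19.8 and 20.2 CPM with RapaLink-1, 19.2, 17.5 and 18.9 CPM with Torin1, 39.9, 39.5 and 38.1 CPM with rapamycin and 46, 47.9 and 45.7 CPM with DMSO. RapaLink-1 and Torin1 libraries lay below every rapamycin library, and these below every DMSO library. The log2 fold change of Rad54l was -1.19 ± 0.04 with RapaLink-1, -1.33 ± 0.04 with Torin1 and -0.25 ± 0.04 with rapamycin (adjusted p = 1.8e-63, 7.97e-69 and 1.63e-09). Rad51ap1, a DNA-binding accessory protein of strand invasion, changed by -1.09 ± 0.04, -1.22 ± 0.04 and -0.16 ± 0.04 with RapaLink-1, Torin1 and rapamycin. Rad54b, a relative of Rad54l, showed another order, with 15.2, 13.7 and 14 CPM with RapaLink-1, 13.3, 14.7 and 13.1 CPM with Torin1, 21.7, 23.2 and 23.4 CPM with rapamycin and 20.4, 19.9 and 20.5 CPM with DMSO. Rapamycin libraries were the highest and did not overlap with those of DMSO. Rad54b fell with RapaLink-1 (-0.51 ± 0.06, adjusted p = 4.07e-16) and Torin1 (-0.57 ± 0.06, adjusted p = 1.32e-18) and rose with rapamycin (0.17 ± 0.05, adjusted p = 0.00227). Its exons share 35.9% of their bases with Fsbp on the same strand, a gene at 2.02 to 3.41 CPM on average per group that itself changed by -0.21 ± 0.14 with RapaLink-1 (not called), -0.44 ± 0.15 with Torin1 and 0.31 ± 0.13 with rapamycin (adjusted p = 0.0301), so the value of Rad54b is uncertain to that extent. In Rad54l 15.4% of exonic bases lie opposite Lrrc41, and reads cannot be assigned to a strand because the strand setting is not given in the sources used here.

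End resection turns a break into single-stranded ends. Mre11a, Rad50 and Nbn form the complex that holds and first cuts the ends, Rbbp8 (CtIP) activates that cut, and the exonuclease Exo1 extends it and also serves mismatch repair. Exo1 had 17.1, 16.1 and 16.6 CPM with RapaLink-1, 15, 15.1 and 14.3 CPM with Torin1, 35.2, 36.3 and 35.6 CPM with rapamycin and 44.7, 42.7 and 43.8 CPM with DMSO. These groups were separate, with a log2 fold change of -1.40 ± 0.04 for RapaLink-1, -1.57 ± 0.05 for Torin1 and -0.29 ± 0.04 for rapamycin (adjusted p = 5.48e-70, 1.86e-75 and 5.5e-12). Rbbp8 had 27.7, 27.6 and 27.3 CPM with RapaLink-1, 27, 28.5 and 27.2 CPM with Torin1, 45.1, 44.6 and 42 CPM with rapamycin and 58.5, 59.4 and 56.8 CPM with DMSO. RapaLink-1 and Torin1 libraries covered the same range, below rapamycin, which was below DMSO. The log2 fold change of Rbbp8 was -1.08 ± 0.04 with RapaLink-1, -1.08 ± 0.04 with Torin1 and -0.41 ± 0.03 with rapamycin (adjusted p = 1.81e-64, 2.05e-64 and 5.81e-23).

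The 3 subunits of the Mre11a complex did not move by the same amount. Nbn, its signalling subunit, had 35.1, 35.8 and 34.5 CPM with RapaLink-1, 37.2, 38.2 and 35.2 CPM with Torin1, 42.6, 40.2 and 39 CPM with rapamycin and 54.3, 56.6 and 58.2 CPM with DMSO. All treated libraries lay below all DMSO libraries, and the change with rapamycin (-0.47 ± 0.04, adjusted p = 5.74e-27) was the largest fall with that compound after Ung. Nbn changed by -0.68 ± 0.04 with RapaLink-1 and -0.61 ± 0.04 with Torin1 (adjusted p = 1.7e-41 and 4.43e-37). Mre11a, the nuclease, changed by -0.57 ± 0.03, -0.62 ± 0.03 and -0.35 ± 0.03 with RapaLink-1, Torin1 and rapamycin. Rad50, the ATPase that tethers the ends, had 78, 78.8 and 76.4 CPM with RapaLink-1, 74.5, 75 and 78.7 CPM with Torin1, 79.2, 83.6 and 83.2 CPM with rapamycin and 84.6, 83.9 and 83 CPM with DMSO. Treated libraries of RapaLink-1 and Torin1 were below DMSO by a small margin, and those of rapamycin overlapped with it. Rad50 was called lower with RapaLink-1 (-0.11 ± 0.03) and Torin1 (-0.14 ± 0.03) but not with rapamycin (-0.03 ± 0.03), and under upper-quartile scaling both calls were lost, at 0.03 with RapaLink-1, which reversed the sign, and -0.01 with Torin1.

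Among the helicases and junction nucleases, 4 genes encode proteins that unwind or cut joined molecules. Brip1, the helicase bound by BRCA1 (also FANCJ), had 20, 20.9 and 20 CPM with RapaLink-1, 16.3, 15.7 and 17.3 CPM with Torin1, 36.8, 36.1 and 37.7 CPM with rapamycin and 35.9, 37.6 and 38.9 CPM with DMSO. RapaLink-1 and Torin1 libraries were far below the others, while rapamycin and DMSO overlapped. Brip1 fell with RapaLink-1 (-0.88 ± 0.04, adjusted p = 1.07e-44) and Torin1 (-1.19 ± 0.05, adjusted p = 4.69e-58) and was not called with rapamycin (-0.02 ± 0.04, adjusted p = 0.702). Blm, the helicase mutated in Bloom syndrome, changed by -1.03 ± 0.05, -1.16 ± 0.05 and -0.18 ± 0.04 with RapaLink-1, Torin1 and rapamycin.

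Mus81 and Eme1 encode the 2 subunits of 1 nuclease, and with RapaLink-1 and Torin1 they moved in opposite directions. Mus81, the catalytic subunit, lies at chr19:5482345-5488402 and had 30.5, 28.6 and 30.7 CPM with RapaLink-1, 31.1, 33.8 and 33.4 CPM with Torin1, 28.4, 25.3 and 26.9 CPM with rapamycin and 21.1, 23.1 and 20.9 CPM with DMSO. Every treated library lay above every DMSO library. A transcript of Gm48985 matches 9.76% of the exonic length of Mus81 at 95.7% identity, so part of the reads may belong to that gene. The log2 fold change of Mus81 was 0.47 ± 0.05 with RapaLink-1, 0.60 ± 0.05 with Torin1 and 0.32 ± 0.05 with rapamycin (adjusted p = 2.1e-18, 9.3e-27 and 1.25e-09), and with TMM scaling no other of the 36 genes rose with all 3 (21.3% of all genes), while with upper-quartile scaling Fance did too. Eme1, at mean levels of 12 ± 0.65 CPM with RapaLink-1, 10.5 ± 0.64 with Torin1, 22.4 ± 1.7 with rapamycin and 21.9 ± 1.1 with DMSO (SD, n = 3), changed by -0.87 ± 0.06, -1.07 ± 0.06 and 0.03 ± 0.05 with RapaLink-1, Torin1 and rapamycin, the last not called. In Eme1 10.7% of exonic bases lie opposite Lrrc59, which itself changed by -1.37 ± 0.02 with RapaLink-1 and -1.50 ± 0.02 with Torin1, so part of its reads may belong to that gene.

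**Figure D2:**
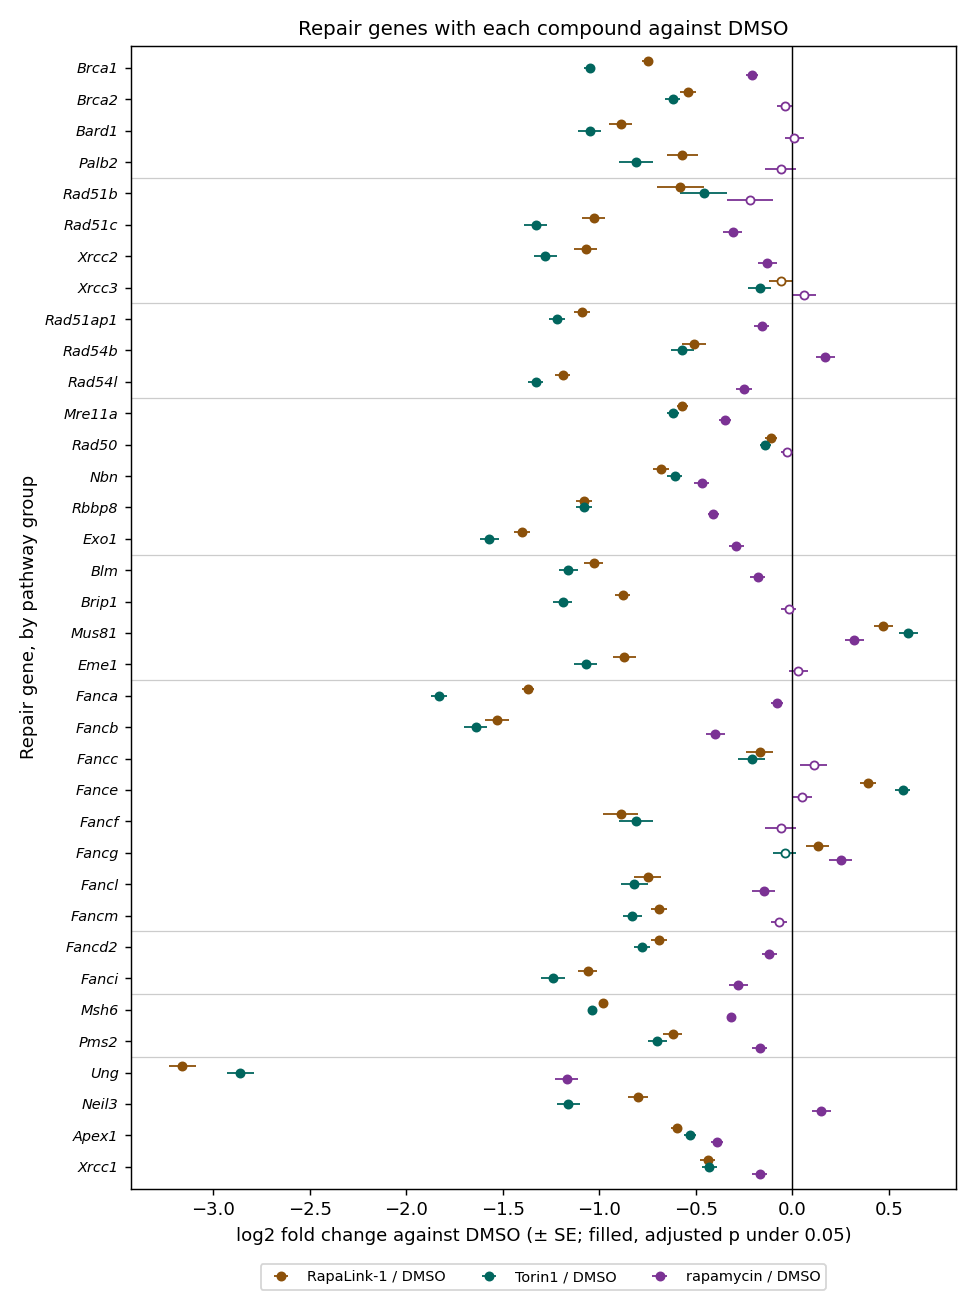
Log2 fold change of each of the 36 repair genes with RapaLink-1, Torin1 and rapamycin against DMSO, with bars of 1 SE and the genes ordered by role. Points of RapaLink-1 and Torin1 lie around their medians of -0.75 and -0.82, those of rapamycin around -0.14, Ung is lowest with all 3 compounds, and Mus81 is above 0 with all 3.

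The Fanconi core complex held some of the largest falls of the 36 genes as well as genes that rose. Fanca, a scaffold subunit encoded at chr8:123268300-123318576, had 28.4, 29.8 and 29.1 CPM with RapaLink-1, 21.4, 21.5 and 21.1 CPM with Torin1, 73.4, 69.2 and 71.4 CPM with rapamycin and 76.1, 77 and 73.4 CPM with DMSO. Torin1 libraries were the lowest and RapaLink-1 libraries came next, without overlap, while rapamycin libraries lay just below those of DMSO. The log2 fold change of Fanca was -1.37 ± 0.03 with RapaLink-1 and -1.83 ± 0.04 with Torin1 (adjusted p = 2.03e-83 and 1.13e-97). With rapamycin it was -0.08 ± 0.03 (adjusted p = 0.0137), a call that was lost without DMSO replicate 1 (-0.07), DMSO replicate 2 (-0.07) or rapamycin replicate 2 (-0.06). The call was also lost under upper-quartile scaling. Over all alternatives the value ranged from -0.1 to -0.02, with adjusted p up to 0.617. In Fanca 10.5% of exonic bases lie opposite Zfp276, which rose by 0.60 ± 0.04 with RapaLink-1 and 0.57 ± 0.04 with Torin1.

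Fancb, an X-linked subunit that joins the ligase Fancl, had 8.23, 8.50 and 8.35 CPM with RapaLink-1, 8.56, 6.49 and 8.27 CPM with Torin1, 18.4, 18.8 and 17.9 CPM with rapamycin and 24.7, 22.9 and 24.8 CPM with DMSO. The RapaLink-1 and Torin1 libraries overlapped with each other and with no other group. Fancb changed by -1.53 ± 0.06 with RapaLink-1, -1.64 ± 0.06 with Torin1 and -0.40 ± 0.05 with rapamycin (adjusted p = 5.81e-56, 6.56e-59 and 1.32e-11). Fancl itself, the ubiquitin ligase of the complex, fell by 0.75 with RapaLink-1 and 0.82 with Torin1, and Fancm, the motor that anchors the complex on DNA, by 0.69 and 0.83. With rapamycin Fancl changed by -0.15 ± 0.06, a call lost without DMSO replicate 1 (-0.07) or rapamycin replicate 1 (-0.11), and also under upper-quartile scaling. Fancm changed by -0.07 ± 0.04 with rapamycin, which was not called and became a call without rapamycin replicate 2 (-0.13). Fancf, an adaptor of the complex, fell by 0.89 with RapaLink-1 and 0.81 with Torin1 and was not called with rapamycin (-0.06 ± 0.08). Fancl and Fancf have 13.7% and 15% of exonic bases opposite Vrk2 and Gas2, both of which fell with RapaLink-1 and Torin1.

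Fance, Fancg and Fancc differed in direction or size from these. Fance, the subunit that contacts FANCD2, lies at chr17:28313530-28326568 and had 30.8, 30.5 and 28.5 CPM with RapaLink-1, 34.8, 33.9 and 33.4 CPM with Torin1, 24.1, 23.3 and 23.5 CPM with rapamycin and 22.7, 22.5 and 23.3 CPM with DMSO. RapaLink-1 and Torin1 libraries lay above all others, with Torin1 highest. Fance rose with RapaLink-1 (0.39 ± 0.04, adjusted p = 7.49e-15) and Torin1 (0.57 ± 0.04, adjusted p = 8.05e-27) and was not called with rapamycin (0.05 ± 0.05, adjusted p = 0.356), where it became a call under upper-quartile scaling (0.11, adjusted p = 0.0272) and with genes of a mean of at least 5 CPM (0.11). Fancg, a subunit that binds FANCA, had 14.1, 14.3 and 13.6 CPM with RapaLink-1, 12.9, 12.2 and 12.1 CPM with Torin1, 15.3, 15.9 and 14.6 CPM with rapamycin and 13.3, 12.4 and 12.5 CPM with DMSO. Rapamycin libraries were above all DMSO libraries, RapaLink-1 libraries too, and Torin1 libraries overlapped with DMSO. Fancg rose with rapamycin (0.25 ± 0.06, adjusted p = 9.77e-05), while the rise with RapaLink-1 (0.13 ± 0.06, adjusted p = 0.0401) was lost without DMSO replicate 2 (0.11), DMSO replicate 3 (0.12), RapaLink-1 replicate 1 (0.13) or RapaLink-1 replicate 2 (0.12). Fancc, the partner of Fance in the complex, changed by -0.17 ± 0.07 with RapaLink-1 and -0.21 ± 0.07 with Torin1, small falls that upper-quartile scaling took below the threshold at -0.04 and -0.09, the first also being lost without DMSO replicate 1 (-0.17), DMSO replicate 3 (-0.14), RapaLink-1 replicate 1 (-0.13) or RapaLink-1 replicate 3 (-0.17). With rapamycin Fancc was not called (0.11 ± 0.07) and became a rise of 0.17 under upper-quartile scaling (adjusted p = 0.0265) and with genes of a mean of at least 5 CPM (adjusted p = 0.0264).

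The 2 proteins that the core complex marks are Fancd2 and Fanci, which form a clamp on DNA. Fanci had 12.6, 11.8 and 13.6 CPM with RapaLink-1, 9.63, 11.8 and 11.9 CPM with Torin1, 22.5, 20.9 and 22.1 CPM with rapamycin and 26.9, 26.8 and 25.7 CPM with DMSO. RapaLink-1 and Torin1 libraries overlapped with each other and lay below rapamycin, which lay below DMSO. Fanci had a log2 fold change of -1.06 ± 0.05 with RapaLink-1, -1.24 ± 0.06 with Torin1 and -0.28 ± 0.05 with rapamycin (adjusted p = 1.08e-42, 2.33e-49 and 3.01e-07), and 16% of its exonic bases lie opposite Polg. Fancd2 changed by -0.69 ± 0.04, -0.78 ± 0.04 and -0.12 ± 0.04 with RapaLink-1, Torin1 and rapamycin, the last a call that was lost under upper-quartile scaling (-0.05, adjusted p = 0.214) and with genes of a mean of at least 5 CPM (-0.06).

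Both mismatch repair genes of the set fell with all 3 compounds. Msh6, which recognises mismatched bases, had 83.2, 85.2 and 84.5 CPM with RapaLink-1, 81.3, 80.8 and 80.5 CPM with Torin1, 133, 136 and 131 CPM with rapamycin and 166, 165 and 167 CPM with DMSO. Groups of treated libraries were each below DMSO without overlap, with a log2 fold change of -0.98 ± 0.02 with RapaLink-1, -1.04 ± 0.02 with Torin1 and -0.32 ± 0.02 with rapamycin (adjusted p = 1.02e-86, 3.27e-90 and 7.86e-30). Pms2, which carries the nuclease that nicks the strand with the error, changed by -0.62 ± 0.05, -0.70 ± 0.05 and -0.17 ± 0.04 with RapaLink-1, Torin1 and rapamycin. It shares 5.9% of exonic bases with Gm42421 on the same strand, a gene too low to be tested, at means of 0.0758 to 0.188 CPM per group.

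Of the base excision genes, Ung changed most. It encodes the glycosylase that removes uracil from DNA, lies at chr5:114130386-114139323 and had 2.94, 3.32 and 3.12 CPM with RapaLink-1, 4.41, 3.15 and 4 CPM with Torin1, 12.3, 12.3 and 12.7 CPM with rapamycin and 28, 27.7 and 28.1 CPM with DMSO. Its 3 groups of treated libraries were all below DMSO, and RapaLink-1 and Torin1 overlapped with each other. Ung had a log2 fold change of -3.16 ± 0.07 with RapaLink-1 (a change of -88.8%), -2.86 ± 0.07 with Torin1 (-86.3%) and -1.17 ± 0.06 with rapamycin (-55.5%), with adjusted p of 5.24e-88, 1.09e-84 and 1.2e-46. Counts of Ung were 90 to 121 per library with RapaLink-1, 111 to 150 with Torin1, 384 to 505 with rapamycin and 931 to 1066 with DMSO.

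Neil3, a glycosylase that removes oxidised bases and can unhook crosslinks at forks, had 13.9, 12.7 and 15.2 CPM with RapaLink-1, 11.4, 11.1 and 10.2 CPM with Torin1, 26.1, 27.5 and 27.3 CPM with rapamycin and 25, 23.1 and 24.6 CPM with DMSO. Rapamycin libraries were above all DMSO libraries, and those of RapaLink-1 and Torin1 were below. Neil3 fell with RapaLink-1 (-0.80 ± 0.05, adjusted p = 3.48e-31) and Torin1 (-1.16 ± 0.06, adjusted p = 1.06e-45) and rose with rapamycin (0.15 ± 0.05, adjusted p = 0.00348). Neil3 and Rad54b were the only 2 of the 36 genes called in opposite directions by compounds against DMSO with TMM scaling (6.11% of all genes). Apex1, the main endonuclease for abasic sites, changed by -0.60 ± 0.03, -0.53 ± 0.03 and -0.39 ± 0.03 with RapaLink-1, Torin1 and rapamycin. In Apex1 61.7% of exonic bases lie opposite Pip4p1, which rose by 0.48 ± 0.03 with RapaLink-1 and 0.50 ± 0.03 with Torin1, so the value of Apex1 is uncertain. Xrcc1, the scaffold of single-strand break repair, changed by -0.44 ± 0.04, -0.43 ± 0.04 and -0.17 ± 0.04 with RapaLink-1, Torin1 and rapamycin.

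By the pattern of calls against the shared DMSO libraries, 20 genes fell with all 3 compounds (25.5% of all genes) and 10 fell with RapaLink-1 and Torin1 without a call for rapamycin (7.58% of all genes). Of the 20, Fanca, Fancd2, Fancl and Xrcc2 lost the rapamycin call in at least 1 alternative, and all 4 lost it under upper-quartile scaling. The 10 were Brca2, Bard1, Palb2, Rad51b, Rad50, Brip1, Eme1, Fancc, Fancf and Fancm. The remaining 6 were Rad54b and Neil3, Xrcc3, Mus81, Fance and Fancg, described above.

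Set directly against rapamycin, both other compounds gave lower levels of most genes. With RapaLink-1, 32 genes were lower and 2 higher than with rapamycin, against 33.0% and 32.0% of all genes, and 4 were lower by 2-fold or more (2.57% of all genes). With Torin1, 33 were lower and 2 higher than with rapamycin, against 33.2% and 34.2% of all genes, and 12 were lower by 2-fold or more (3.29%). In both contrasts the libraries of all 36 genes did not overlap between the groups (67.4% of all genes for RapaLink-1 and 69.2% for Torin1), and the genes higher than with rapamycin were Mus81 and Fance. The median difference was -0.64 for RapaLink-1 and -0.74 for Torin1.

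Differences from rapamycin were largest for Ung and Fanca. Ung differed by -1.99 ± 0.09 between RapaLink-1 and rapamycin and by -1.70 ± 0.08 between Torin1 and rapamycin. Fanca, which hardly moved with rapamycin itself, differed by -1.29 ± 0.04 for RapaLink-1 and -1.74 ± 0.04 for Torin1. Neil3, with its rise under rapamycin, differed by -0.95 ± 0.05 and -1.31 ± 0.06, and Exo1 by -1.11 ± 0.05 and -1.27 ± 0.05. Nbn, Mre11a and Apex1 were among the genes with small differences, at -0.21 ± 0.04, -0.22 ± 0.03 and -0.22 ± 0.03 for RapaLink-1 and at -0.14 ± 0.04, -0.27 ± 0.03 and -0.14 ± 0.03 for Torin1, where upper-quartile scaling left Nbn uncalled at -0.08. Rad50 was called at -0.08 ± 0.03 for RapaLink-1 and -0.11 ± 0.03 for Torin1, and both calls were lost under upper-quartile scaling, at -0.0025 (adjusted p = 0.944) and -0.04 (adjusted p = 0.166). The first was also lost with genes of a mean of at least 5 CPM (-0.05) and without rapamycin replicate 2 (-0.06) or rapamycin replicate 3 (-0.06).

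RapaLink-1 and Torin1 differed from each other by smaller amounts. Between them 15 genes were higher and 3 lower with RapaLink-1 and 18 were not called, against 16.7% higher and 16.4% lower among all genes, and the median difference was 0.10. The libraries of 20 genes did not overlap (42.2% of all genes). Higher with RapaLink-1 were Fanca (0.45 ± 0.04, adjusted p = 9.42e-18), Neil3 (0.36 ± 0.06, adjusted p = 7.14e-07), Brca1 (0.30 ± 0.03, adjusted p = 2.76e-14), Brip1 (0.30 ± 0.05, adjusted p = 3.38e-07) and Rad51c (0.30 ± 0.07, adjusted p = 0.00027), and these 5 calls were kept in every alternative run. The other 10 rises were each lost in at least 1 alternative. Fance was lower with RapaLink-1 (-0.18 ± 0.04, adjusted p = 0.000122) in every alternative run.

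The lower calls of Ung and Mus81 with RapaLink-1 were less firm, and without Torin1 replicate 3 only 1 of the 3 lower calls was left. Ung differed by -0.29 ± 0.11 (adjusted p = 0.0368), with overlapping libraries, and the call was lost without Torin1 replicate 1 (-0.19), Torin1 replicate 3 (-0.25), RapaLink-1 replicate 1 (-0.25) or RapaLink-1 replicate 3 (-0.28). Mus81 differed by -0.13 ± 0.04 (adjusted p = 0.0103), which was lost without Torin1 replicate 2 (-0.10), Torin1 replicate 3 (-0.11) or RapaLink-1 replicate 2 (-0.09). No difference was called for Rbbp8, Msh6, Fancb or Nbn. The 95% interval of the RapaLink-1 minus Torin1 difference was -0.09 to 0.08 for Rbbp8, 0.01 to 0.11 for Msh6, -0.05 to 0.26 for Fancb and -0.15 to 0.01 for Nbn, on the log2 scale. These intervals are not adjusted for the number of genes tested, whereas the calls are, and Msh6 had an adjusted p of 0.0611 in the quasi-likelihood test. For S phase genes the median of the same difference was 0.11, with 10 higher and 2 lower of 14, and for G2 and mitosis genes 0.26, with 12 higher of 12, and their part in the differences was not tested.

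**Figure D3:**
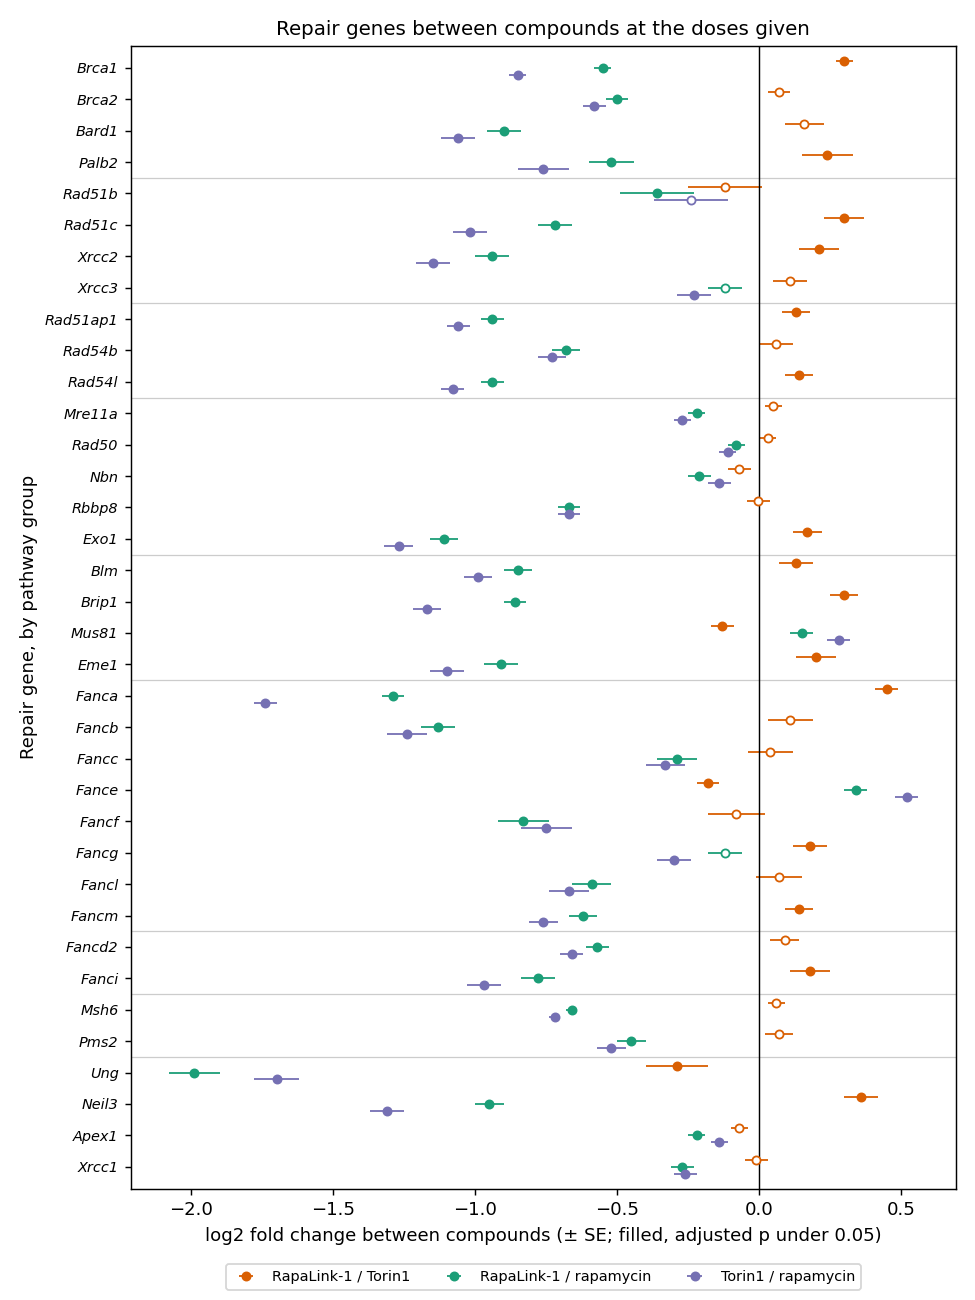
Log2 fold change of each of the 36 repair genes for RapaLink-1 against Torin1, RapaLink-1 against rapamycin and Torin1 against rapamycin, with bars of 1 SE. Points against rapamycin are mostly below 0, those of RapaLink-1 against Torin1 lie between -0.29 (Ung) and 0.45 (Fanca), and Mus81 and Fance are above 0 against rapamycin.

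The other genes of these pathways, which are not among the 36, also fell more often than they rose. Of 28 other recombination and Fanconi genes, 19 fell and 5 rose with RapaLink-1 (median -0.27), 19 fell and 6 rose with Torin1 (median -0.33), and 13 fell and 3 rose with rapamycin (median -0.06). Among all genes tested 37.9% were lower and 38.7% higher with RapaLink-1, 38.3% and 39.8% with Torin1, and 32.2% and 27.5% with rapamycin. Upper-quartile scaling, tried on these lists after seeing the data, gave 16 lower and 8 higher with RapaLink-1, 17 lower and 9 higher with Torin1, and 10 lower and 6 higher with rapamycin, where the median became 0.00. Usp1, the enzyme that takes ubiquitin off FANCD2, changed by -1.30 ± 0.02, -1.40 ± 0.02 and -0.52 ± 0.02 with RapaLink-1, Torin1 and rapamycin. Rpa1, a subunit of the protein that coats single strands, changed by -1.01 ± 0.02, -1.08 ± 0.02 and -0.36 ± 0.02.

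Of 5 other mismatch repair genes, 3 fell and 1 rose with each compound, with medians of -0.57, -0.50 and -0.19 for RapaLink-1, Torin1 and rapamycin. Msh3, which recognises small loops of unpaired bases, changed by -0.76 ± 0.04, -0.87 ± 0.05 and -0.32 ± 0.04. Of 15 other base excision and single-strand break genes tested, 9 fell and 5 rose with RapaLink-1 (median -0.43), 9 fell and 4 rose with Torin1 (median -0.45), and 6 fell and 1 rose with rapamycin (median -0.07). For both lists the shares over all genes are those given for the recombination genes above. Tdg, a glycosylase for thymine and uracil opposite guanine, changed by -1.36 ± 0.04, -1.30 ± 0.04 and -0.66 ± 0.04, and Parp1, the sensor of strand breaks, by -0.82 ± 0.02, -0.83 ± 0.02 and -0.43 ± 0.02.

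Cell cycle genes also fell in these libraries, as counted above. Mcm5 of the replicative helicase changed by -1.70 ± 0.02, -1.79 ± 0.02 and -0.63 ± 0.02 with RapaLink-1, Torin1 and rapamycin, and Ccna2, a cyclin of S and G2 phase, by -1.34 ± 0.02, -1.58 ± 0.02 and -0.33 ± 0.02.

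**Figure D4:**
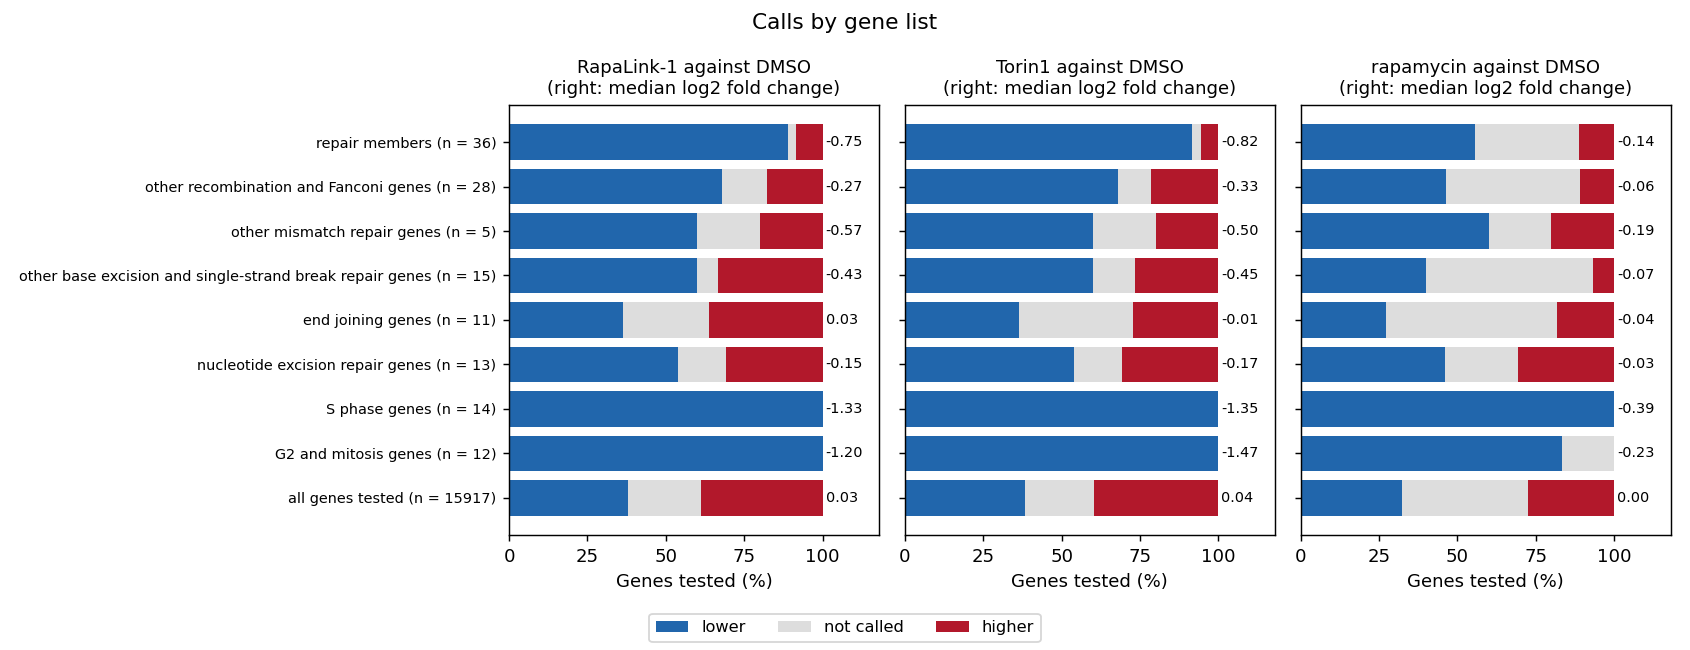
Share of the tested genes of each list that were lower, not called or higher with RapaLink-1, Torin1 and rapamycin against DMSO, with the list's median log2 fold change at the right of each bar. The 36 repair genes have 32, 33 and 20 lower genes, S phase genes are all lower in each panel, and end joining genes, like all genes tested, are lower and higher in similar numbers.

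Levels per kilobase of exon, which scale counts by gene length, spread widely in DMSO. The length covers all annotated exons of a gene, so the order of genes also depends on the annotation. Apex1 was highest at 55.2 ± 1.1 CPM per kilobase, Msh6 followed at 39 ± 0.25 and Nbn at 22.3 ± 0.79. The place of Apex1 is uncertain, as 61.7% of its exonic bases lie opposite Pip4p1. Rad50, Rbbp8 and Mre11a came next at 15.6 ± 0.15, 15.1 ± 0.35 and 14.1 ± 0.18, and Rad51b, Palb2 and Fancc were lowest at 2.25 ± 0.13, 1.26 ± 0.098 and 1.22 ± 0.071 CPM per kilobase (SD, n = 3 for each). Of these neighbours in the order, only Palb2 and Fancc differed by less than their SD. Ung stood at 0.571 ± 0.035 CPM per kilobase with RapaLink-1, 0.705 ± 0.12 with Torin1, 2.27 ± 0.049 with rapamycin and 5.11 ± 0.037 with DMSO, in DMSO the 20th of the 36 genes.

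**Figure D5:**
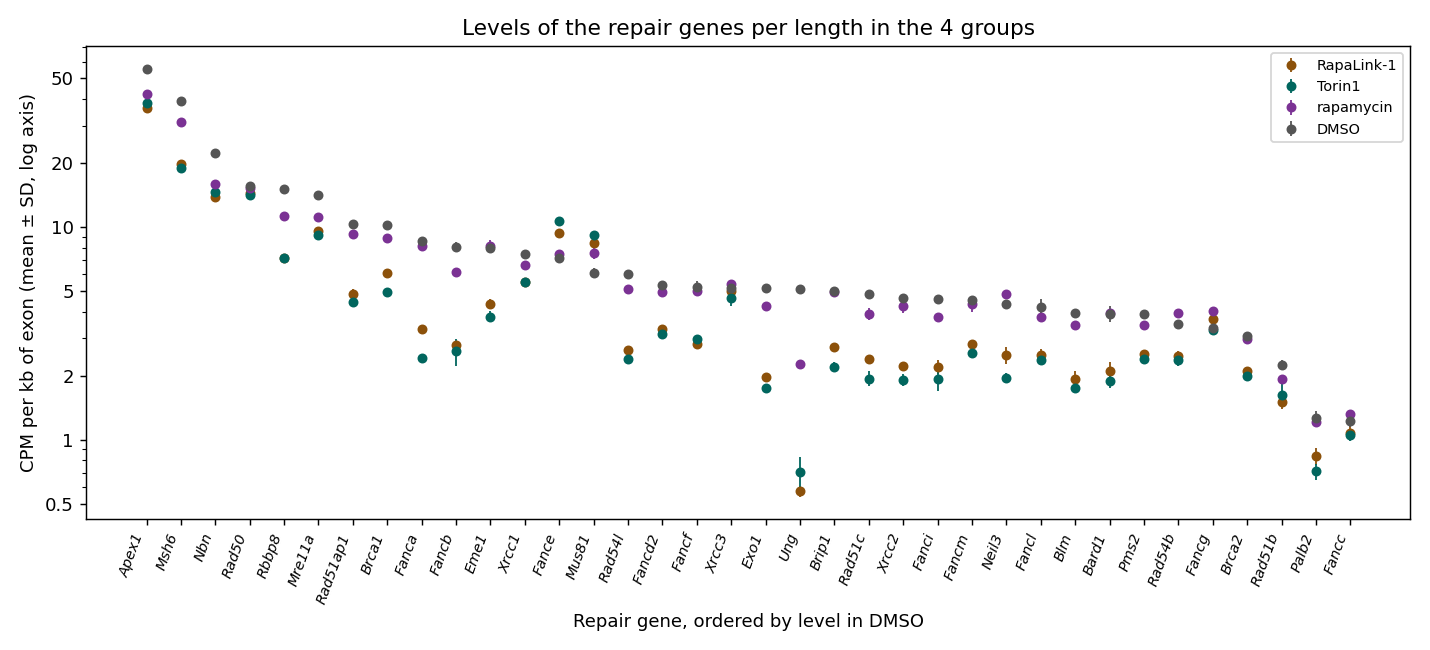
Level of each of the 36 repair genes per kilobase of exon with RapaLink-1, Torin1, rapamycin and DMSO, in CPM per kilobase on a log axis, ordered by the DMSO mean, with bars of 1 SD over 3 libraries. Apex1 is highest and Fancc lowest in DMSO, and Ung is in the middle of the order in DMSO and among the lowest genes with RapaLink-1 and Torin1.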

How the data were processed

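The authors deposited 1 table of whole-number read counts per library, made with featureCounts per the file headers, and these counts were used unchanged. The submitters' processing notes name GRCm38, DESeq2, STAR 2.5.2b, Trimmomatic 0.36 and Subread 1.5.2. No source used here gives the strand setting, the annotation release or the handling of reads with several matches. The values of repair genes that overlap another gene by over 5% of exonic bases are therefore uncertain, and the other gene is named beside them. Transcripts of other genes also matched Fancc (Gm16133, 17.2% of exonic length), Mus81 (Gm48985, 9.76%), Rbbp8 (AC090479.2, 9.72%) and Fancm (Gm47870, 7.42%). The matches of Fancc, Rbbp8 and Fancm lie on the opposite strand, and the values of all these genes are uncertain too. Of the genes outside the set that are named, Tdg, Ccna2 and Xrcc6 also overlap a gene on the opposite strand by 6.83%, 12.5% and 7.69%.

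Tests used the quasi-likelihood method of edgeR 4.0.16 (R 4.3.3). The filter filterByExpr left 15917 genes, all 36 repair genes among them, and TMM factors set the library sizes. The 12 libraries entered 1 fit with the treatment as its only term and 8 residual degrees of freedom. Each pair of treatments was a contrast, tested on both sides, with Benjamini-Hochberg adjustment over all genes tested, and genes were called at an adjusted p under 0.05. For 3 libraries against 3, the smallest p of an exact permutation test is 0.1. Libraries of a treatment differed by 1.33 to 1.99 times the counting noise (chi-square per degree of freedom). The fitted spread beyond counting noise (biological coefficient of variation) was 1.48%. These values do not tell whether the libraries stem from separate cultures.

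The repair genes and the other lists were chosen with earlier results of these data known. Values in each library are given for the 3 largest called falls and rises against DMSO with each compound, for the largest change of each role, and for genes called in opposite directions. Xrcc3 and Rad50 were added after their values were seen. From each other list up to 3 genes with the smallest p per compound could be named, and some of these are not reported here. Calls were recomputed with DESeq2 1.42.0, other scalings and filters, only the 2 groups compared, the replicate number as a term, and without each library.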

Additional observations from a re-analysis of the deposited data

How the results depend on the processing

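The counts of called repair genes stayed within 1.5 times their values in every alternative, except the 3 genes lower with RapaLink-1 than with Torin1, which became 1 with DESeq2 and 1 to 2 when a library was left out (1 without Torin1 replicate 3). With the replicate number as a block, 16 genes in place of 15 were higher with RapaLink-1 than with Torin1, and the other counts were the same. Libraries of the same number did not deviate together (r of -0.0391 to 0.0587 over 18 pairs), and 4 of 12 correlated best with their own number. Upper-quartile scaling moved the median of all genes to 0.16 with RapaLink-1 and 0.16 with Torin1 and the median of the repair genes to -0.61, -0.70 and -0.08 with RapaLink-1, Torin1 and rapamycin. Over all genes it gave 4823 lower and 7629 higher with RapaLink-1 (6036 and 6165 with TMM), against DMSO. With Torin1 it gave 4999 lower and 7640 higher (6090 and 6332 with TMM), and with rapamycin 4061 lower and 5481 higher (5127 and 4381 with TMM). Under it and with genes of a mean of at least 5 CPM, 16 genes were lower with rapamycin. Rad51b had no value under that filter. Signs turned only for values between -0.11 and 0.11 on the log2 scale. With upper-quartile scaling these were Rad50 (0.03) and Xrcc3 (0.08) for RapaLink-1, Fancg (0.08) for Torin1, and Brca2 (0.02), Palb2 (0.0047), Rad50 (0.03), Brip1 (0.04) and Fancf (0.0043) for rapamycin, all against DMSO, and Rbbp8 (0.01) and Xrcc1 (0.0032) for RapaLink-1 against Torin1. With the filter at 5 CPM they were Xrcc3 (0.03) for RapaLink-1, Fancg (0.05) for Torin1, and Brca2 (0.02), Palb2 (8.3e-07), Rad50 (0.03) and Brip1 (0.04) for rapamycin. Bard1 with rapamycin was -0.00031 without a filter, -9.8e-06 with DESeq2 and -0.05 to 0.07 with a library left out, where Palb2 was -0.09 to 0.01, Brip1 -0.05 to 0.01 and Eme1 -0.03 to 0.08. For RapaLink-1 against Torin1, Rbbp8 was 0.01 and Xrcc1 0.0024 with DESeq2 and with its size factors. With a library left out Rbbp8 was -0.01 to 0.03, Xrcc1 -0.01 to 0.0048, Fancb -0.00093 to 0.18 and Fancc -0.01 to 0.09. The cause was not tested. Depth limits the genes with few counts most: the SE against DMSO was 0.12 for Rad51b and 0.02 for Msh6.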

Other observations

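Genes of end joining, which rejoins broken ends without a template, fell and rose in similar numbers, as did all genes tested. Among all genes 37.9% were lower and 38.7% higher with RapaLink-1, 38.3% and 39.8% with Torin1, and 32.2% and 27.5% with rapamycin. Of 11 end joining genes, 4 fell and 4 rose with RapaLink-1 (median 0.03), 4 fell and 3 rose with Torin1 (median -0.01), and 3 fell and 2 rose with rapamycin (median -0.04). Upper-quartile scaling, tried after seeing the data, gave 3 lower and 6 higher with RapaLink-1, 3 and 5 with Torin1, and 2 and 3 with rapamycin. Polm, a polymerase that fills gaps during end joining, rose by 0.91 ± 0.04 with RapaLink-1, 1.27 ± 0.04 with Torin1 and 0.51 ± 0.04 with rapamycin. Lig4, the ligase of the pathway, changed by -0.69 ± 0.05 with RapaLink-1 and -0.89 ± 0.06 with Torin1, and its rapamycin value is not reported here. Xrcc6, a subunit of the Ku end-binding protein, changed by -0.46 ± 0.03, -0.49 ± 0.03 and -0.38 ± 0.03 with RapaLink-1, Torin1 and rapamycin.

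Of 13 nucleotide excision repair genes, 7 fell and 4 rose with RapaLink-1 (median -0.15), 7 fell and 4 rose with Torin1 (median -0.17), and 6 fell and 4 rose with rapamycin (median -0.03). The shares over all genes are those given for end joining. With upper-quartile scaling 6 were lower and 5 higher with RapaLink-1 and with Torin1, and 4 lower and 5 higher with rapamycin. Xpc, the damage sensor of the global pathway, rose by 0.95 ± 0.05 with Torin1, and its values with the other compounds are not reported here. The highest value in the list was 0.91 with RapaLink-1 and 0.37 with rapamycin. Rad23b, the partner of Xpc, changed by -0.71 ± 0.02, -0.74 ± 0.02 and -0.45 ± 0.02 with RapaLink-1, Torin1 and rapamycin. These lists were chosen with earlier results of the data known, and no test of the difference between lists was made.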
